A study of Mus musculus with 4 samples.

Results

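Granzymes, the proteases of cytotoxic granules, and killer lectin-like receptors, the C-type lectins with which natural killer (NK) cells read their targets, were followed through the NK cells and T cells of 4 mouse prostate libraries. Every gene whose symbol begins with Gzm or Klr was taken, with Prf1, Nkg7, Ncr1 and Fasl. This gave 40 of the 30905 genes in the matrix. A cell counted as an NK cell with at least 2 UMIs (unique molecular identifiers, each one a counted transcript) over Ncr1, Klrb1c and Klre1, and as a T cell with at least 2 UMIs over Cd3e, Cd3d and Cd3g. Of 28834 cells that passed the filters, 316 were NK cells and 2459 were T cells. A further 130 cells met both conditions and were kept apart. Since Ncr1, Klrb1c and Klre1 chose the NK cells, they are described but not counted among the other 37 members in any comparison.

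The libraries were droplet single-cell RNA of whole prostates, counted at the 3' ends of transcripts, with 1 library for each of 4 groups of mice. In 2 groups, Trp53 (the gene of the p53 tumour suppressor) was deleted in a prostate-restricted way, and in the other 2 it was not. One group of each genotype had ADT, an abbreviation that the labels do not spell out and that is read here as androgen deprivation therapy. All 4 groups share the rest of their genotype, and none of them is labelled wild type. The groups are called Trp53-deleted ADT (5.5 months old), Trp53-deleted (3.5 months), Trp53-intact ADT (5.5 months) and Trp53-intact (4 months). The promoter that drives the deletion, the strain and the number of animals in a library are not stated in the sources used here. Because a group is 1 library, no difference below has a replicate check. The ADT groups were also the oldest. ADT therefore cannot be told apart from age or from the library, and genotype cannot be told apart from the library.

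Kept cells numbered 8801 in Trp53-deleted ADT, 5334 in Trp53-deleted, 7222 in Trp53-intact ADT and 7477 in Trp53-intact prostates. Their median depth was 5650, 4437.5, 4147 and 5430 UMIs in the same libraries. Whole libraries held between 58088678 and 148030357 UMIs. In epithelial-like cells, Trp53 stood at 16.8 CPM (UMIs of a gene in a class of cells, scaled to 1000000 UMIs of that class) in Trp53-deleted ADT and 17.6 in Trp53-deleted, against 83.3 in Trp53-intact ADT and 56.6 in Trp53-intact. The labels do not give the deleted exons, so a 3' count does not test the deletion. Between libraries, 128 barcode sequences recurred, and these included 1 NK cell and 23 T cells.

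An NK cell kills by releasing perforin and granzymes. Perforin opens a path into the target cell and granzymes cleave proteins inside it, with granzyme B acting on caspase substrates and granzyme A being a tryptase. Whether it fires depends on receptors that come in activating and inhibitory forms. In mice these are mainly the Klra genes (the Ly49 family), which bind MHC class I directly or act as activating receptors, the CD94 and NKG2 pairs (Klrd1 with Klrc1 or Klrc2), the pairs of Klre1 with Klri1 or Klri2, NKG2D (Klrk1), which binds stress-induced ligands, and the NKR-P1 family (Klrb1 genes), which binds Clec2 proteins.

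The members lie in few places of the genome. On the GRCm38 build with GENCODE M21 annotation, 24 of them fall in the killer lectin block from Klrb1a to Klra2 on chromosome 6 (chr6:128609227-131247362), which holds 43 protein-coding genes. Within it, the 10 genes from Klra17 to Klra1 (chr6:129831154-130386874) are all on the minus strand. Gzme, Gzmd, Gzmg, Gzmn, Gzmf, Gzmc and Gzmb fill a block on chromosome 14 (chr14:56117626-56262260) with no other protein-coding gene. Gzma (chr13:113093825-113100981, minus strand) lies apart from them, next to Gzmk. The Klr block matters for the counts, because neighbours share sequence. In the last 500 bases of their transcripts, 18 members shared at least 1 stretch of 50 bases with the transcripts of another member, and 12 shared over 10% of such stretches. Klra9 shared 46.0%, Klrc1 43.5%, Klra10 40.6% and Klra3 31.5%, so these levels are uncertain. Gzma, Gzmb, Gzmc, Klra7, Klra2, Klrd1 and Klrk1 shared none with another member, and Klra4 shared 4.66%. Genes other than the members were not compared. The number of Klra genes also differs between mouse strains.

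The promoters of 6 members are shown because the results turn on them. Gzma and Gzmc marked different NK cells, Gzmb accompanied both, and Klra4, Klra8 and Klra9 were among the Klra genes that also appeared in cells that are not lymphocytes. Each run is 300 bases, 250 before to 50 after the start of the RefSeq gene on GRCm38.p6, read 5′ to 3′ on the minus strand of the genome. Capitals mark matches on either strand to TGTGGT (the core letters of a Runx motif), TCACACC (T-box), AGGAAG (Ets) or TGANTCA (AP-1). The 6 windows, in the order below, are chr13:113100932-113101231, chr14:56262285-56262584, chr14:56234608-56234907, chr6:130067222-130067521, chr6:130129849-130130148 and chr6:130193063-130193362.
Gzma: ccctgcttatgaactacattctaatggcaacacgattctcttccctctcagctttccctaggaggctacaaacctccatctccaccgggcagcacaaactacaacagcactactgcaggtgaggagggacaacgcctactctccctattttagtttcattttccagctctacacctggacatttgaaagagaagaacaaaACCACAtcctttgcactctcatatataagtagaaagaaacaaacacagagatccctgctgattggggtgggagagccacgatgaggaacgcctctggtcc
Gzmb: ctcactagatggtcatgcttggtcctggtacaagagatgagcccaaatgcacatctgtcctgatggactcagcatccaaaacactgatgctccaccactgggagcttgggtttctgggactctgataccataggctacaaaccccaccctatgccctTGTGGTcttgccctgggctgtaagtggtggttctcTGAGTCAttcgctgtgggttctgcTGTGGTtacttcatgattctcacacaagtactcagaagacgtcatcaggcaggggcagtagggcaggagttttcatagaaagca
Gzmc: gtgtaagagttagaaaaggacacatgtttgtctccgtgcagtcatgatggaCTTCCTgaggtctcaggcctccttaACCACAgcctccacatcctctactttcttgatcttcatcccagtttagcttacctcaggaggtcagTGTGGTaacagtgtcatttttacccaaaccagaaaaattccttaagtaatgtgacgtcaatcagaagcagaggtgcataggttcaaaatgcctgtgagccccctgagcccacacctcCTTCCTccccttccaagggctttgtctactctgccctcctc
Klra4: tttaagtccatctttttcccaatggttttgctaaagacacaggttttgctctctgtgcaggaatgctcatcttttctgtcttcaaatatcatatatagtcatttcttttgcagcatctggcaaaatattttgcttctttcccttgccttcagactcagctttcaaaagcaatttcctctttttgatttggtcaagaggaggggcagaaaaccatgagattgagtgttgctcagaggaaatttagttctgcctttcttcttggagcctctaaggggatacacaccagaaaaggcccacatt
Klra8: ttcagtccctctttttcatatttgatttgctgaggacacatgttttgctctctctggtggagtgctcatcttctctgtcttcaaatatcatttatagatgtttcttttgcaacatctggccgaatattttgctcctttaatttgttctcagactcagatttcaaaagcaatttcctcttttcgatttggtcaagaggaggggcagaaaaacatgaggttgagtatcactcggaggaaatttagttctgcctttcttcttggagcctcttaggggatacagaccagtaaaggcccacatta
Klra9: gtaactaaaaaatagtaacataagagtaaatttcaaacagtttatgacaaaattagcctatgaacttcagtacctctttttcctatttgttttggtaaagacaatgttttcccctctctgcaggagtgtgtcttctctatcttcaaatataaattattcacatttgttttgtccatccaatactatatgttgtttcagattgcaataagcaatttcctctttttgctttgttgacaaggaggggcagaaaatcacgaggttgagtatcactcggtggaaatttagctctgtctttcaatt

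The Runx letters stood at bases -50 to -45 of Gzma, at -93 to -88 and -34 to -29 of Gzmb, and at -174 to -169 and -108 to -103 of Gzmc. Gzmb also held the AP-1 letters at -58 to -52, and Gzmc held the Ets letters at -199 to -194 and 9 to 14. None of the 4 motifs was found in the Klra4, Klra8 and Klra9 windows. Promoters were found for 37 of the 40 members, all but Klrg1, Klrd1 and Klri2. The Runx letters were in 19 of the 37 (51.4%) against 16.8% of 32851 promoters of the same length. The T-box letters were in 3 (8.11%) against 3.98%, the Ets letters in 16 (43.2%) against 35.4%, and the AP-1 letters in 5 (13.5%) against 7.81%. These windows are not independent, since duplicated genes resemble each other. Klra4 and Klra8 were identical at 86.0% of aligned bases and Gzmc and Gzmd at 82.7%, whereas Gzmb and Gzmc were identical at 46.2% and Gzmb and Gzma at 44.2%. A match is a description of these letters only.

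NK cells made up 1.01% of kept cells in Trp53-deleted ADT, 1.46% in Trp53-deleted, 0.914% in Trp53-intact ADT and 1.11% in Trp53-intact prostates. T cells made up 9.82% in Trp53-deleted ADT, 7.80% in Trp53-deleted, 10.7% in Trp53-intact ADT and 5.44% in Trp53-intact. Among NK and T cells together, NK cells were thus 9.34% (95% exact interval 7.57 to 11.4) and 7.88% (6.14 to 9.91) in the Trp53-deleted ADT and Trp53-intact ADT libraries, against 15.8% (12.7 to 19.3) in Trp53-deleted and 16.9% (13.7 to 20.6) in Trp53-intact. The intervals of either ADT library lay below those of either library without ADT. All intervals here and below cover counting error only. The gates count UMIs, so they were also applied after each cell with at least 1500 UMIs had been thinned to 1500 UMIs. Cells with fewer UMIs were left out, here and in all thinned values below. This left 7146 cells in Trp53-deleted ADT, 4516 in Trp53-deleted, 5716 in Trp53-intact ADT and 5993 in Trp53-intact. NK cells were then 0.630% of cells in Trp53-deleted ADT, 1.24% in Trp53-deleted, 0.717% in Trp53-intact ADT and 0.901% in Trp53-intact.

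The NK gate was checked with genes outside it. Tyrobp, an adaptor of activating receptors, stood at 1225 CPM in NK cells of Trp53-deleted ADT, 1787 in Trp53-deleted, 1638 in Trp53-intact ADT and 1285 in Trp53-intact, against 83.6 to 170.2 CPM in T cells. Trac, the constant part of the T-cell receptor alpha chain, was at 3.3 to 19.8 CPM in NK cells, against 350.4 to 474.4 in T cells. Eomes, a transcription factor of conventional NK cells, was at 99.3 CPM in Trp53-deleted ADT, 422 in Trp53-deleted, 88.9 in Trp53-intact ADT and 126 in Trp53-intact NK cells. By these means the gate held NK rather than T cells, although Trbc1 was at 306 to 709 CPM in them and 47 of the 316 cells, described below, had Eomes at 1.99 CPM. Other cell types were also seen in the gate. Summed fibroblast markers reached 1241 CPM in Trp53-deleted ADT and 1664 in Trp53-deleted NK cells, against 87.1 in Trp53-intact ADT and 88.4 in Trp53-intact, and at least 3 such UMIs were in 59.6%, 21.8%, 3.03% and 7.23% of those NK cells. Macrophage markers summed to 666 CPM in Trp53-deleted ADT, 136 in Trp53-deleted, 411 in Trp53-intact ADT and 643 in Trp53-intact NK cells, with none of the 4 markers at 0 in these libraries. Their part in the results on NK cells was not tested beyond leaving out such cells, which is given with the other settings.

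Most members had their highest level in NK cells. By mean CPM over the libraries, 29 of the 37 members outside the gate were highest in NK cells among all classes of cells, and 32 of them were higher in NK than in T cells. The same shares over all genes were not counted, so these counts stand without them. Among the 29, Klrc3, Klrb1, Gzmf and Klra10 had only 18, 26, 26 and 34 UMIs in all kept cells. Gzmk, a granzyme of memory CD8 T cells, was highest in T cells, and Gzmg had no UMI in NK cells. The other 6 were highest elsewhere. Klrg1 led in ILC2-like cells, Klra2 and Klra17 in the plasmacytoid dendritic gate, Klri1 in dendritic-like cells and Klrg2 in epithelial-like cells, while Gzmn had 3 UMIs in fibroblast-like cells. Over NK cells of the 4 libraries, 27 members had at least 20 UMIs, and over T cells 23 did.

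**Figure D1:**
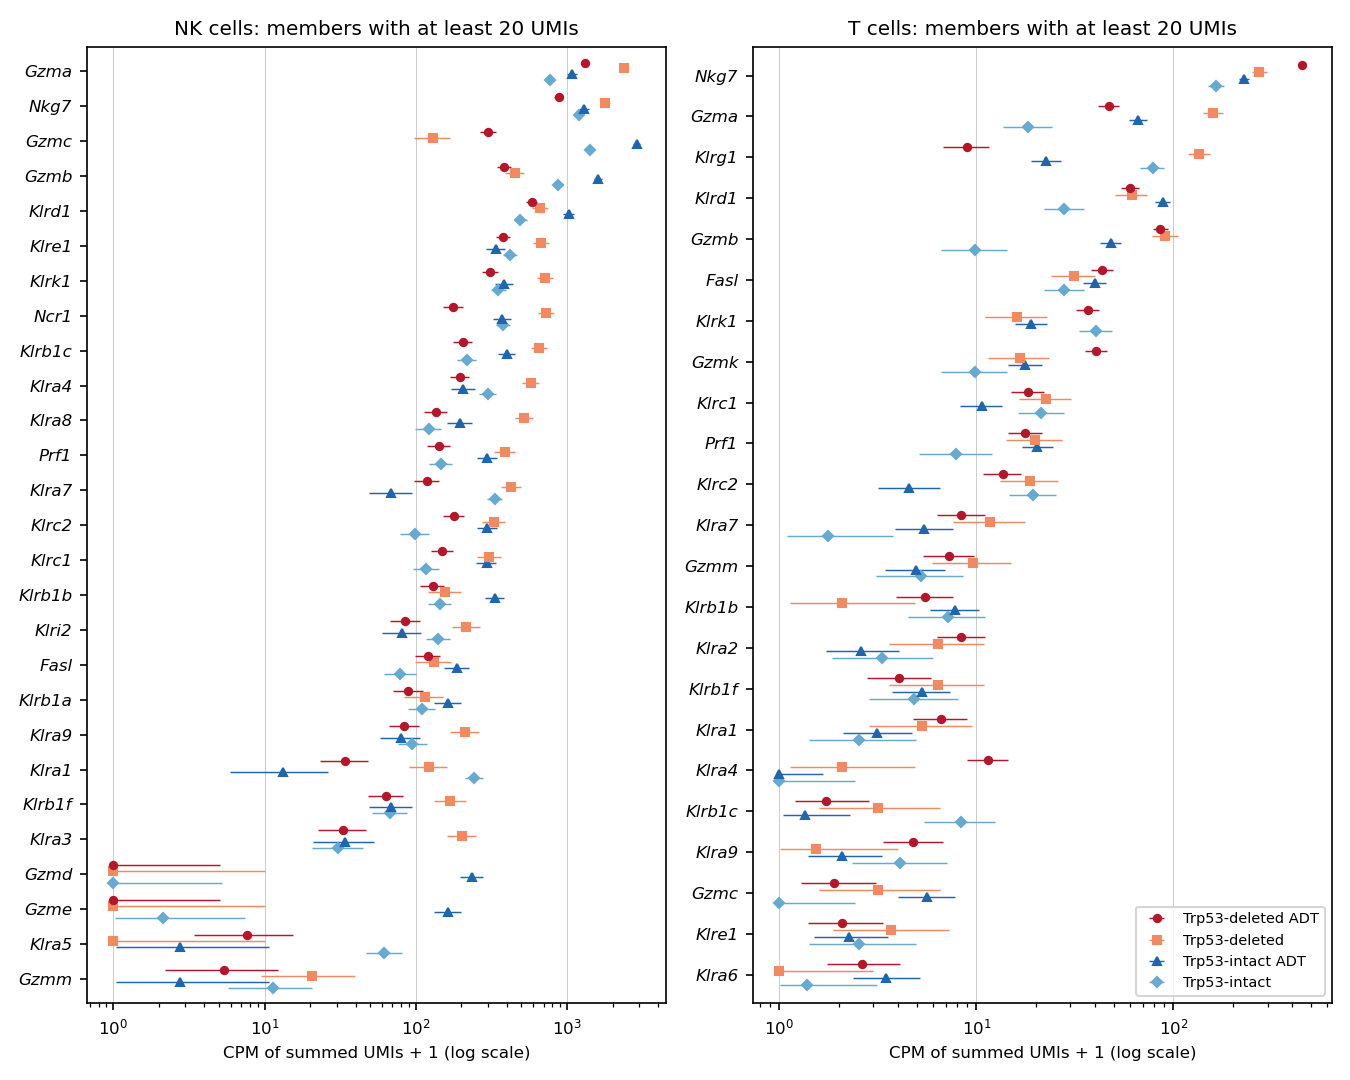
Level of the members with at least 20 UMIs in NK cells (left) and T cells (right), as CPM + 1 on a log axis, with 1 point per library and its 95% exact Poisson interval. Gzma, Nkg7, Gzmc and Gzmb stand highest in NK cells by their mean, and Nkg7 stands above the other members in T cells.

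Granzyme A was the most abundant member in NK cells, at a mean of 1385 CPM. Gzma reached 1306 CPM (95% exact interval 1232 to 1382) in Trp53-deleted ADT, 2392 (2244 to 2548) in Trp53-deleted, 1077 (994 to 1166) in Trp53-intact ADT and 767 (710 to 827) in Trp53-intact NK cells. It was highest in the Trp53-deleted library and lowest in Trp53-intact, and no interval overlapped another. Gzmb, granzyme B, ran the other way, with 383 CPM (344 to 426) in Trp53-deleted ADT, 452 (389 to 522) in Trp53-deleted, 1607 (1505 to 1714) in Trp53-intact ADT and 871 (810.1 to 935) in Trp53-intact. Gzmc, granzyme C, differed more widely, with 299 CPM (265 to 337) in Trp53-deleted ADT, 128 (95.9 to 168) in Trp53-deleted, 2879 (2742 to 3022) in Trp53-intact ADT and 1413 (1335 to 1494) in Trp53-intact. Both Gzmb and Gzmc were thus higher in either Trp53-intact library than in either Trp53-deleted one, and Gzma was not. These sums rest on few cells. Gzma UMIs were in 50 of 89, 51 of 78, 20 of 66 and 30 of 83 NK cells of Trp53-deleted ADT, Trp53-deleted, Trp53-intact ADT and Trp53-intact, and Gzmc UMIs in 10, 4, 26 and 20. B-like cells, which should lack these genes, held no Gzmc UMI in any library and Gzma UMIs in 0 of 155, 5 of 428, 3 of 548 and 0 of 171 cells, at median depths of 3981, 4054.5, 4346.5 and 5916 UMIs. The NK cells had medians of 6308, 4861.5, 6874.5 and 7265 UMIs.

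The remaining granzymes were rare in NK cells. Gzmd was seen only in Trp53-intact ADT, at 234 CPM, with 113 of its 134 UMIs in 1 cell. Gzme had no UMI in Trp53-deleted ADT and Trp53-deleted NK cells and was at 162 CPM in Trp53-intact ADT, with 70 of 93 UMIs in 1 cell, and 1.15 in Trp53-intact. All 16 UMIs of Gzmf were in 1 Trp53-intact cell. All 3 genes lie in the block of Gzmc on chromosome 14. Gzmg and Gzmn had no UMI in NK cells. Gzmm, granzyme M, stayed at 4.42 CPM in Trp53-deleted ADT, 19.8 in Trp53-deleted, 1.74 in Trp53-intact ADT and 10.3 in Trp53-intact NK cells. Gzmk was at 14.8 CPM in Trp53-deleted and 1.74 in Trp53-intact ADT, with no UMI in the other NK cells.

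The proteins that work with granzymes followed other orders. Prf1, perforin, was at 141 CPM in Trp53-deleted ADT, 385 in Trp53-deleted, 295 in Trp53-intact ADT and 146 in Trp53-intact NK cells. Nkg7, a granule membrane protein, was at 883 CPM in Trp53-deleted ADT, 1778 in Trp53-deleted, 1299 in Trp53-intact ADT and 1199 in Trp53-intact. Counted per cell instead, Nkg7 gave 8.99, 9.23, 11.3 and 12.6 UMIs, so that its order between libraries changed with the depth of the cells. Fasl, the death ligand that NK and T cells carry beside their granules, was at 119 CPM in Trp53-deleted ADT, 131 in Trp53-deleted, 187 in Trp53-intact ADT and 78.0 in Trp53-intact.

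Gzma and Gzmc were nearly never found in the same NK cell. Of 316 NK cells, 81 had UMIs of Gzma and Gzmb without Gzmc, 54 had Gzmb and Gzmc without Gzma, 69 had Gzma alone and 15 Gzmb alone. Only 1 cell had all 3, and none had Gzma with Gzmc and no Gzmb. Cells with Gzmb and Gzmc numbered 7 in Trp53-deleted ADT, 3 in Trp53-deleted, 24 in Trp53-intact ADT and 20 in Trp53-intact, and cells with Gzma and Gzmb 27, 24, 13 and 17. In the Trp53-deleted libraries the Gzma pair was therefore the more frequent one, and in Trp53-intact ADT the Gzmc pair.

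**Figure D2:**
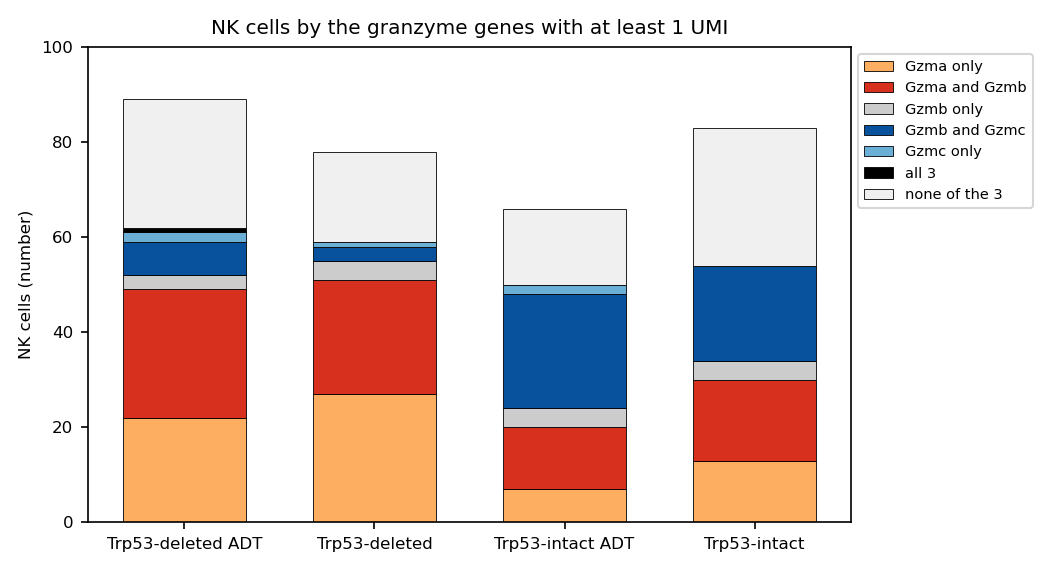
Number of NK cells (vertical axis) in each library by which of Gzma, Gzmb and Gzmc they hold with at least 1 UMI, stacked from Gzma only to none of the 3. Cells with Gzmb and Gzmc number 7 in Trp53-deleted ADT, 3 in Trp53-deleted, 24 in Trp53-intact ADT and 20 in Trp53-intact.

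To describe those cells, NK cells with at least 3 Gzmc UMIs were set apart after their values had been seen. There were 47 of them (4 in Trp53-deleted ADT, 3 in Trp53-deleted, 22 in Trp53-intact ADT and 18 in Trp53-intact) beside 269 others, and no test is given. They had no Gzma UMI, against 1526 CPM in the other NK cells, while Gzmb was at 3003 against 311 CPM. Eomes was at 1.99 CPM, from 1 UMI, against 187 CPM. Itga1, the collagen-binding integrin CD49a, was at 395 against 52.8 CPM, and Itga2, the CD49b chain of conventional NK cells, at 7.95 against 73.7 CPM. In mice, CD49a without CD49b and without Eomes is the textbook description of type 1 innate lymphoid cells and tissue-resident NK cells. The chemokine gene Xcl1 was at 3202 against 739 CPM. The receptors split as well. Klra1, Klra3, Klra4, Klra8 and Klra9 had no UMI in the 47 cells, against 131, 68.8, 349, 244 and 127 CPM in the others, and Klra7 was at 7.95 against 268 CPM. Klra5 was at 75.5 against 9.76 CPM, but 37 of its 38 UMIs in the 47 cells came from 4 cells of Trp53-intact. Since 22 and 18 of the 47 cells came from Trp53-intact ADT and Trp53-intact, these sums also mix the libraries. Klrb1b, an inhibitory NKR-P1 receptor, was at 407 against 128 CPM and Klrd1 at 1031 against 573 CPM, while Ncr1 (350 against 363 CPM) and Klrb1c (292 against 318 CPM) were close. The 47 cells were deeper, with a median of 10485 against 5943 UMIs, so they held more UMIs in which a Klra gene could have appeared.

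The Klra genes code for receptors that NK cells carry in varying sets. The most abundant was Klra4 (Ly49D, an activating receptor), at 194 CPM in Trp53-deleted ADT, 578 in Trp53-deleted, 206 in Trp53-intact ADT and 297 in Trp53-intact NK cells. Klra8 (Ly49H, the activating receptor for a cytomegalovirus protein) was at 135 CPM in Trp53-deleted ADT, 519 in Trp53-deleted, 195 in Trp53-intact ADT and 121 in Trp53-intact. Both were highest in the Trp53-deleted library. Among inhibitory receptors, Klra7 (Ly49G) was at 117 CPM in Trp53-deleted ADT, 427 in Trp53-deleted, 68.0 in Trp53-intact ADT and 333 in Trp53-intact, and so was lower in either ADT library. Klra1 (Ly49A) was at 33.1 CPM in Trp53-deleted ADT, 121 in Trp53-deleted, 12.2 in Trp53-intact ADT and 241 in Trp53-intact, and was likewise lower in the ADT libraries. Klra3 (Ly49C) was at 32.0 CPM in Trp53-deleted ADT, 199.97 in Trp53-deleted, 33.1 in Trp53-intact ADT and 29.8 in Trp53-intact. Klra9 (Ly49I) was at 82.8 CPM in Trp53-deleted ADT, 209.9 in Trp53-deleted, 78.4 in Trp53-intact ADT and 94.1 in Trp53-intact, and shares its transcript end with Klra3. A single NK cell held UMIs of 1.61 Klra genes on average in Trp53-deleted ADT, 2.32 in Trp53-deleted, 1.12 in Trp53-intact ADT and 2.72 in Trp53-intact. At 1500 UMIs per cell these means were 0.955, 1.65, 0.742 and 1.69 in the same libraries, so the lower number in the ADT libraries was also seen at 1 depth. Klra5 (Ly49E) was at 6.62 CPM in Trp53-deleted ADT, had no UMI in Trp53-deleted, and was at 1.74 CPM in Trp53-intact ADT and 60.8 in Trp53-intact NK cells. Klra2, Klra6, Klra10 and Klra17 stayed below 20 CPM in every library.

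Klrd1 (CD94) was at 582 CPM in Trp53-deleted ADT, 659 in Trp53-deleted, 1027 in Trp53-intact ADT and 490.0 in Trp53-intact NK cells, and had UMIs in 83 of 89, 66 of 78, 65 of 66 and 78 of 83 of them. Its inhibitory partner Klrc1 (NKG2A) was at 149 CPM in Trp53-deleted ADT, 306 in Trp53-deleted, 293 in Trp53-intact ADT and 116 in Trp53-intact. Klrc2 (NKG2C, an activating partner) was at 178 CPM in Trp53-deleted ADT, 326 in Trp53-deleted, 295 in Trp53-intact ADT and 97.5 in Trp53-intact. Klrc1 and Klrc2 therefore took the same order of libraries, with Trp53-deleted and Trp53-intact ADT close to each other at the top. Klrc1 shared 39.5% of the stretches at its transcript ends with Klrc2, and Klrc2 shared 11.7% with Klrc1. Their counts may therefore not be independent. Klrk1 (NKG2D) was at 308 CPM in Trp53-deleted ADT, 714 in Trp53-deleted, 383 in Trp53-intact ADT and 351 in Trp53-intact. Klre1, which helped to choose the cells, was at 379 CPM in Trp53-deleted ADT, 674 in Trp53-deleted, 336 in Trp53-intact ADT and 419 in Trp53-intact. The other gate genes were also highest in Trp53-deleted NK cells. Ncr1 (NKp46) was at 175 CPM in Trp53-deleted ADT, 726 in Trp53-deleted, 373 in Trp53-intact ADT and 375 in Trp53-intact, and Klrb1c (NK1.1) at 203, 649, 399 and 216 CPM. Of the inhibitory NKR-P1 genes, Klrb1b was at 128 CPM in Trp53-deleted ADT, 156 in Trp53-deleted, 331 in Trp53-intact ADT and 143 in Trp53-intact. Klrb1a, an activating relative, was at 88.3 CPM in Trp53-deleted ADT, 114 in Trp53-deleted, 162 in Trp53-intact ADT and 109 in Trp53-intact. Both were highest in Trp53-intact ADT, where Gzmc was highest too. Klrb1f was at 62.9 CPM in Trp53-deleted ADT, 168 in Trp53-deleted, 68.0 in Trp53-intact ADT and 66.6 in Trp53-intact. Klri2, an activating partner of Klre1, was at 83.9 CPM in Trp53-deleted ADT, 215 in Trp53-deleted, 80.2 in Trp53-intact ADT and 140.0 in Trp53-intact. Klrb1, Klrc3, Klri1, Klrg1 and Klrg2 stayed at or below 14.8 CPM in NK cells of every library.

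NK cells of the Trp53-deleted ADT library had lower members than those of Trp53-deleted. A member was called measured once the 2 libraries together gave it 20 UMIs, and called higher or lower when its CPM ratio passed 1.5-fold after 5 CPM had been added to each side. A gene nearly absent from 1 library could therefore be measured only through the library where it was high. Of 20 measured members 1 was higher and 14 were lower, against 22.5% and 27.0% of the 7296 genes measured in these NK cells. The median log2 ratio was -1.11 over the members and -0.07 over all genes. The 1 higher member was Gzmc, at 2.33-fold (95% interval 1.73 to 3.20). The 4 lowest were Klra3 at 0.160-fold (0.101 to 0.247), Klra8 at 0.260-fold (0.206 to 0.326), Klra7 at 0.274-fold (0.213 to 0.351) and Klra1 at 0.274-fold (0.168 to 0.440). Prf1 was at 0.367-fold (0.288 to 0.466) and Gzma at 0.546-fold (0.501 to 0.595). The ratio of Gzmb, 0.848-fold (0.707 to 1.02), was within the counting error of no difference. The count depended on the measure. Thinned to 1500 UMIs per cell it was 4 higher and 8 lower, with cells weighted equally 7 were lower, and without cells that held markers of another class (left out after the values were seen) 3 were higher and 7 lower. Only B, plasma, macrophage, neutrophil, epithelial and fibroblast markers were used for this, at 3 or more UMIs of a class. That kept 28 of 89 NK cells in Trp53-deleted ADT, 53 of 78 in Trp53-deleted, 54 of 66 in Trp53-intact ADT and 62 of 83 in Trp53-intact. NK cells of Trp53-deleted ADT held a mean of 10179 UMIs, against 5193 in Trp53-deleted, and in UMIs per cell instead of CPM 5 members were higher and 5 lower. The share of all genes higher or lower was not counted under these other settings, here or below.

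In the Trp53-intact pair the members were more often higher with ADT. Of 23 measured members 11 were higher and 4 lower, against 25.9% and 8.49% of 6702 genes, with median log2 ratios of 0.55 and 0.26. Gzmd was at least 67.8-fold higher (against a floor of 3 UMIs in the library at 0) and Gzme 141-fold (24.7 to 5638), both from a few cells as given above. Klrc2 was at 3.02-fold (2.31 to 3.97) and Klrc1 at 2.53-fold (1.96 to 3.27). Fasl was at 2.39-fold (1.75 to 3.29), Klrd1 at 2.095-fold (1.85 to 2.38) and Gzmc at 2.04-fold (1.89 to 2.20). Gzmb was at 1.85-fold (1.67 to 2.03). The 4 lower members were Klra5, Klra1 at 0.0506-fold (0.0201 to 0.106), Klra7 at 0.204-fold (0.142 to 0.286) and Klri2 at 0.573-fold. With cells thinned to 1500 UMIs, 6 members were higher.

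Without ADT, NK cells of the Trp53-deleted library were set against those of Trp53-intact. Of 21 measured members 12 were higher and 4 lower, beside 40.9% and 10.3% of 6550 genes. The share of all genes that was higher was thus itself large, and the Trp53-deleted cells were the shallower ones. Median log2 ratios were 0.71 for the members and 0.42 for all genes. Klra3 was at 6.70-fold (4.26 to 10.9), Klra8 at 4.30-fold (3.39 to 5.49), Klrc2 at 3.34-fold and Gzma at 3.12-fold (2.83 to 3.45). Gzmc was at 0.0909-fold (0.0675 to 0.120), Gzmb at 0.519-fold (0.439 to 0.610), Klra1 at 0.502-fold, and Klra5 at least 8.21-fold lower. In UMIs per cell, 4 members were higher and 7 lower, and at 1500 UMIs per cell 5 were higher and 5 lower. The log2 ratio of Gzmb was 0.94 without the Gzmc-rich cells, which were set apart after their values were seen and which themselves had Gzmb at 3003 CPM.

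With ADT, more members were lower than higher in the genotype comparison. In Trp53-deleted ADT against Trp53-intact ADT, 2 of 22 measured members were higher and 11 lower, beside 23.7% and 15.9% of 7389 genes. The median log2 ratio was -0.59 over members and 0.07 over all genes. Klra1 at 2.71-fold (1.17 to 7.32) and Klra7 at 1.72-fold (1.18 to 2.55) were the higher ones. The count was 5 higher and 5 lower with gates at 3 UMIs, 4 lower at 1500 UMIs per cell, 6 lower with cells weighted equally, and 4 higher and 7 lower without cells that held markers of another class. The log2 ratio of Klra1 turned to -0.17 when cells of both gates were counted, and that of Klra7 to -0.14 without the Gzmc-rich cells. Gzmd and Gzme were at least 70.5-fold and 48.9-fold lower, but most UMIs of each in Trp53-intact ADT came from a single cell, as given above. Gzmc was at 0.104-fold (0.0910 to 0.118) and Gzmb at 0.238-fold (0.210 to 0.270). Klrb1b at 0.387-fold, Prf1 at 0.480-fold, Klrc1 at 0.509-fold, Klrb1a at 0.545-fold, Klrd1 at 0.567-fold, Klrc2 at 0.603-fold and Fasl at 0.639-fold made up the rest. The 4 comparisons share libraries with each other, so they are not independent.

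**Figure D3:**
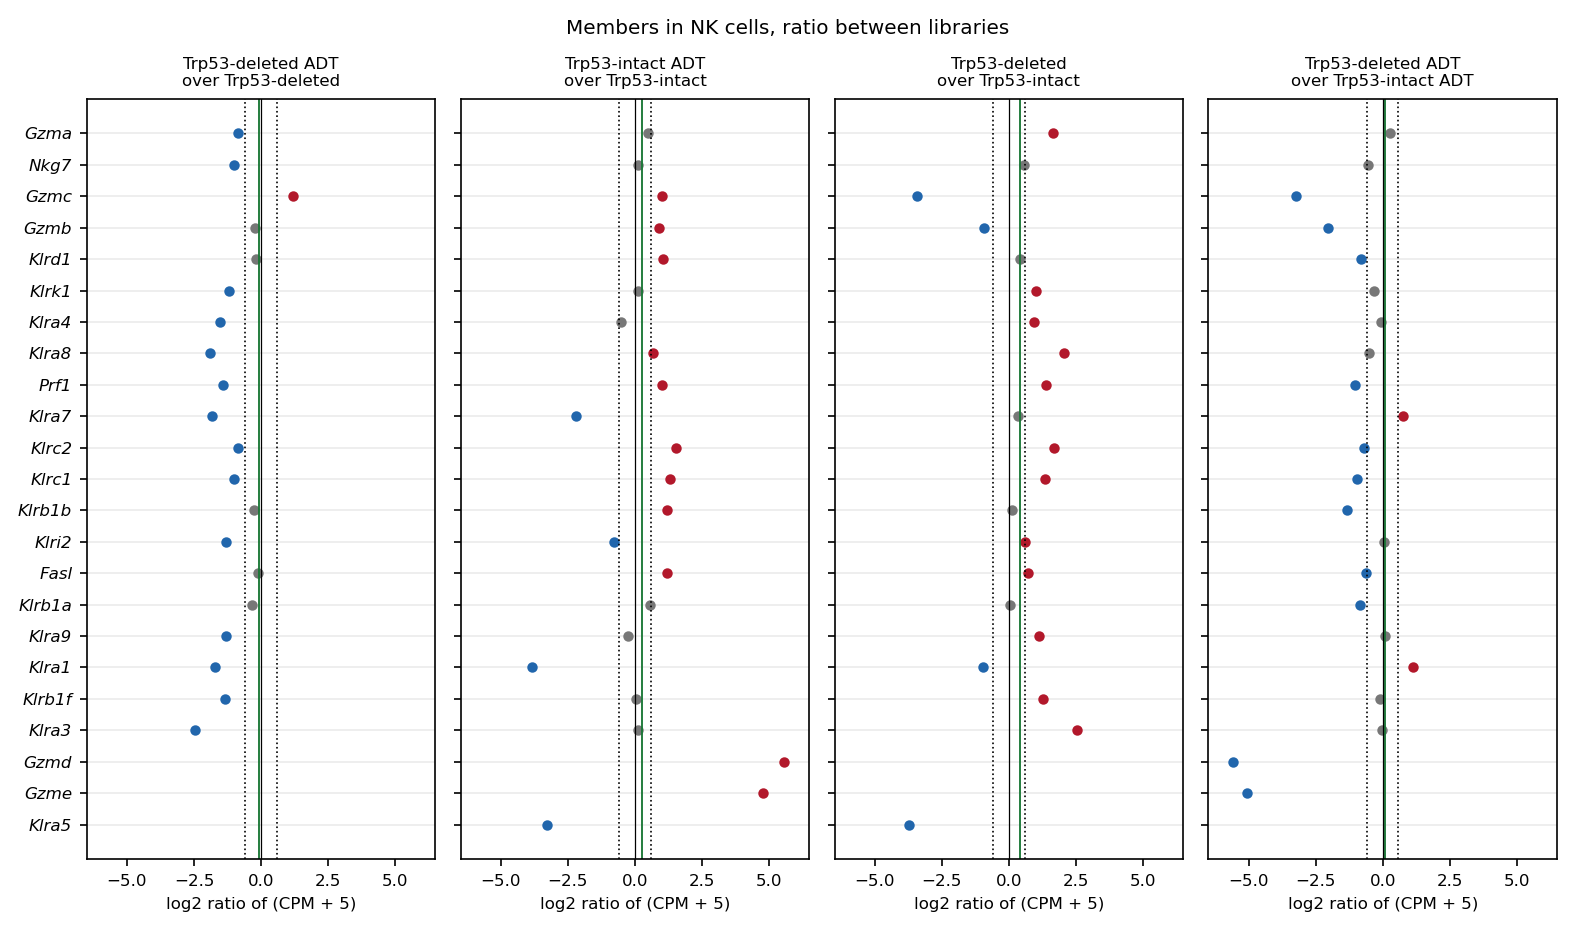
Log2 ratio of CPM + 5 for measured members in NK cells, 1 panel per comparison, with dotted lines at 1.5-fold, a green line at the median of all genes, and red (higher), blue (lower) or grey points. Lower members prevail where Trp53-deleted ADT is compared (14 of 20 and 11 of 22), and higher ones in the other comparisons (11 of 23 and 12 of 21).

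Genes that work with the members were read from 6 lists. In Trp53-deleted ADT against Trp53-deleted NK cells, where 22.5% of all genes were higher and 27.0% lower, 13 of 17 measured adaptor and signalling genes were lower and none was higher. All 8 measured cytokine and chemokine genes and 10 of 14 transcription factors were lower as well, so the lower levels were not limited to the members. Ccl4, a chemokine made on activation, was at 177 against 842 CPM, and Eomes at 99.3 against 422 CPM. Among 16 granule genes 2 were higher and 6 lower, among 5 protease inhibitors 1 each way, and among 8 genes for ligands of the receptors 1 was higher and 5 lower. Serpinb6a, a serpin, was at 169 against 46.9 CPM. In Trp53-intact ADT against Trp53-intact NK cells (25.9% and 8.49% of all genes), the lists gave 5 higher and 1 lower of 17 adaptors, 1 and 2 of 17 granule genes, 3 and 0 of 6 inhibitors, 3 and 1 of 14 transcription factors, 3 and 1 of 8 cytokines and 3 and 0 of 7 ligands. Serpinb9, which inhibits granzyme B, was at 485 against 243 CPM, and Ifng, interferon gamma, at 31.4 against 165 CPM. In Trp53-deleted against Trp53-intact NK cells (40.9% and 10.3% of all genes), 11 of 14 transcription factors and 9 of 17 adaptors were higher and none lower, with Eomes at 422 against 126 CPM. The other lists gave 5 higher and 1 lower of 16 granule genes, 1 each way of 5 inhibitors, 3 and 2 of 9 cytokines and 2 and 0 of 7 ligands. In Trp53-deleted ADT against Trp53-intact ADT (23.7% and 15.9% of all genes), 7 of 8 cytokines were lower, with Ccl4 at 177 against 1861 CPM and Xcl1 at 523 against 1870.1 CPM. Lower genes also prevailed among adaptors (1 higher, 8 lower of 17), granule genes (2 and 4 of 17), inhibitors (1 and 3 of 6), transcription factors (0 and 6 of 13) and ligands (1 and 6 of 8).

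T cells carried the members at far lower levels. Nkg7 led, at 449 CPM in Trp53-deleted ADT, 271 in Trp53-deleted, 227 in Trp53-intact ADT and 164 in Trp53-intact. It was higher in either ADT library than in the library of the same genotype without ADT. Gzma came next, at 45.9 CPM in Trp53-deleted ADT, 159 in Trp53-deleted, 65.2 in Trp53-intact ADT and 17.3 in Trp53-intact, but it was in only 33 of 864, 17 of 416, 19 of 772 and 9 of 407 T cells. The 1 highest T cell alone held 42.4%, 30.6%, 38.0% and 35.6% of the Gzma UMIs of its library, so these sums are those of a few cells. Gzmb was at 84.8 CPM in Trp53-deleted ADT, 89.5 in Trp53-deleted, 47.0 in Trp53-intact ADT and 8.85 in Trp53-intact, where it was lowest. Gzmk was at 39.4 CPM in Trp53-deleted ADT, 15.6 in Trp53-deleted, 16.7 in Trp53-intact ADT and 8.85 in Trp53-intact. Prf1 stayed between 6.93 and 19.4 CPM and Fasl between 26.9 and 42.5 CPM.

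Among the receptors, Klrg1, an inhibitory receptor for cadherins, differed widely between T cells of the libraries. It was at 7.92 CPM in Trp53-deleted ADT, 134 in Trp53-deleted, 21.6 in Trp53-intact ADT and 77.3 in Trp53-intact, lower in both ADT libraries. Klrd1 was at 59.2 CPM in Trp53-deleted ADT, 60.4 in Trp53-deleted, 87.5 in Trp53-intact ADT and 26.9 in Trp53-intact. Klrk1 was at 35.7 CPM in Trp53-deleted ADT, 15.1 in Trp53-deleted, 18.0 in Trp53-intact ADT and 39.2 in Trp53-intact. Klrk1 was thus highest in one ADT library and one library without ADT. Klrc1 ranged from 9.62 to 21.6 CPM and Klrc2 from 3.56 to 18.5 CPM, both lowest in Trp53-intact ADT. Klra7 had a mean of 5.85 CPM, and no other Klra gene had a higher mean in T cells.

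Of 19 measured members, 6 were higher and 2 lower in Trp53-deleted ADT than in Trp53-deleted T cells, beside 18.3% and 15.1% of 11596 genes. The median log2 ratio of the members was -0.03. Gzmk was at 2.52-fold (1.71 to 3.86), Klrk1 at 2.36-fold (1.58 to 3.65) and Nkg7 at 1.66-fold (1.51 to 1.83). Klra4 at 9.69-fold (2.56 to 81.9), Klra9 and Klrb1b were higher from 58 against 2, 21 against 1 and 25 against 2 UMIs. Each of them was measured through Trp53-deleted ADT alone, so its direction was tied to that filter. Klra4 in the T cells of Trp53-deleted ADT stood at 4.10 UMIs per 1000 UMIs of the fibroblast markers, against 4.58 in fibroblast-like cells of that library. Klrg1 was at 0.0593-fold (0.0420 to 0.0819) and Gzma at 0.290-fold (0.244 to 0.344). With the cells of both gates counted as T cells, 3 members were higher and 11 lower, and the log2 ratios of Klra4 and Klrk1 turned to -0.70 and -0.31.

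In Trp53-intact ADT against Trp53-intact T cells, 7 of 16 measured members were higher and 4 lower, beside 10.1% and 7.29% of 11322 genes. The members' median log2 ratio was 0.46, against 0.11 over all genes. Gzmb was at 5.31-fold (3.47 to 8.53), Gzma at 3.77-fold (2.76 to 5.25), Klrd1 at 3.25-fold (2.52 to 4.23) and Prf1 at 2.80-fold (1.69 to 4.91). Gzmk, Klra7 and Gzmc were the other higher members, Gzmc at least 4.01-fold. Klrc2 was at 0.193-fold (0.108 to 0.331), Klrg1 at 0.279-fold (0.221 to 0.351), Klrk1 at 0.459-fold (0.345 to 0.610) and Klrc1 at 0.472-fold (0.317 to 0.703). When cells that met both gates were added, 7 members were higher and 8 lower.

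More members were higher than lower in both genotype comparisons of T cells. In Trp53-deleted against Trp53-intact, 7 of 14 measured members were higher and 1 lower, beside 24.1% and 8.57% of 10151 genes, with medians of 0.64 and 0.23. Klra7 was at 14.01-fold (3.40 to 124), Gzmb at 10.1-fold (6.52 to 16.4), Gzma at 9.16-fold (6.67 to 12.8) and Klrd1 at 2.24-fold (1.65 to 3.07). Klrk1 was the lower one, at 0.385-fold (0.244 to 0.589). At 1500 UMIs per cell, Klrd1 no longer differed (log2 ratio -0.01) and 2 members were higher. In Trp53-deleted ADT against Trp53-intact ADT, 8 of 21 were higher and 2 lower, beside 15.3% and 5.84% of 12222 genes, with medians of 0.39 and 0.08. Klrc2 was at 3.54-fold (2.13 to 6.14), Gzmk at 2.36-fold (1.84 to 3.03) and Nkg7 at 1.98-fold (1.85 to 2.12). Klra4 was at least 19.5-fold higher, but it was measured through Trp53-deleted ADT alone. There it stood to the fibroblast markers in the ratio of the fibroblast-like cells, as given above. Klrg1 at 0.368-fold (0.254 to 0.523) and Gzmc at 0.194-fold were the lower ones. With the cells of both gates counted as T cells, 5 members were higher and 8 lower. Fibroblast markers in the T gate summed to 2547 CPM in Trp53-deleted ADT, 1436 in Trp53-deleted, 632 in Trp53-intact ADT and 621 in Trp53-intact, and macrophage markers to 1049, 293, 272 and 644 CPM. Plasma-cell markers summed to 7118 CPM in T cells of Trp53-intact.

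The T cells of the libraries were also of different kinds. By Cd8a and Cd8b1, 295 of 864 T cells were CD8 T cells in Trp53-deleted ADT, 81 of 416 in Trp53-deleted, 277 of 772 in Trp53-intact ADT and 46 of 407 in Trp53-intact. Within these CD8 T cells, Nkg7 was at 981 CPM in Trp53-deleted ADT, 858 in Trp53-deleted, 503 in Trp53-intact ADT and 911 in Trp53-intact. The higher Nkg7 of all T cells of Trp53-intact ADT over Trp53-intact was therefore not found within CD8 T cells. Gzmk was at 89.5 CPM in Trp53-deleted ADT CD8 T cells, 50.04 in Trp53-deleted, 35.4 in Trp53-intact ADT and 65.3 in Trp53-intact, and was found in 101 of 295, 14 of 81, 40 of 277 and 12 of 46. Gzmb was at 178 CPM in Trp53-deleted ADT, 316 in Trp53-deleted, 89.1 in Trp53-intact ADT and 56.0 in Trp53-intact CD8 T cells. In Trp53-deleted, 10 CD8 T cells held that Gzmb and 5 held the 630.1 CPM of Gzma, so these levels rest on few cells, whereas 73 CD8 T cells held Gzmb in Trp53-deleted ADT. Klrk1 stood at 38.1 CPM in Trp53-deleted ADT, 52.3 in Trp53-deleted, 17.4 in Trp53-intact ADT and 137 in Trp53-intact CD8 T cells, Klrc1 at 30.7, 81.9, 17.9 and 115 CPM and Klrc2 at 20.6, 56.9, 8.5 and 103 CPM. For all 3 receptors the ADT libraries were lower than those of the same genotype without ADT. The levels without ADT came from only 81 and 46 CD8 T cells, and counting error is not given for these differences. Over all T cells, Klrk1 was instead 2.36-fold higher in Trp53-deleted ADT than in Trp53-deleted.

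Klrg1 was followed in regulatory T cells, taken as T cells with Foxp3. They held 15 of 44 Klrg1 UMIs of all T cells in Trp53-deleted ADT, 179 of 248 in Trp53-deleted, 105 of 121 in Trp53-intact ADT and 142 of 201 in Trp53-intact, so most of them in 3 libraries and fewer in Trp53-deleted ADT. It was at 43.2 CPM in Trp53-deleted ADT, 484.5 in Trp53-deleted, 190.0 in Trp53-intact ADT and 263 in Trp53-intact Foxp3 T cells. UMIs of it were in 10 of 72, 56 of 85, 26 of 47 and 47 of 80 of these cells, against at most 1 B-like cell in any library. In CD4 T cells without Foxp3 it was at 6.4, 56.9, 8.2 and 53.5 CPM in the same libraries. Cytotoxic members were near absent from the Foxp3 T cells. Gzmb ranged from 0 to 27.1 CPM, Gzma from 1.81 to 14.8 CPM and Nkg7 from 1.85 to 34.6 CPM, and Gzmk had no UMI.

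**Figure D4:**
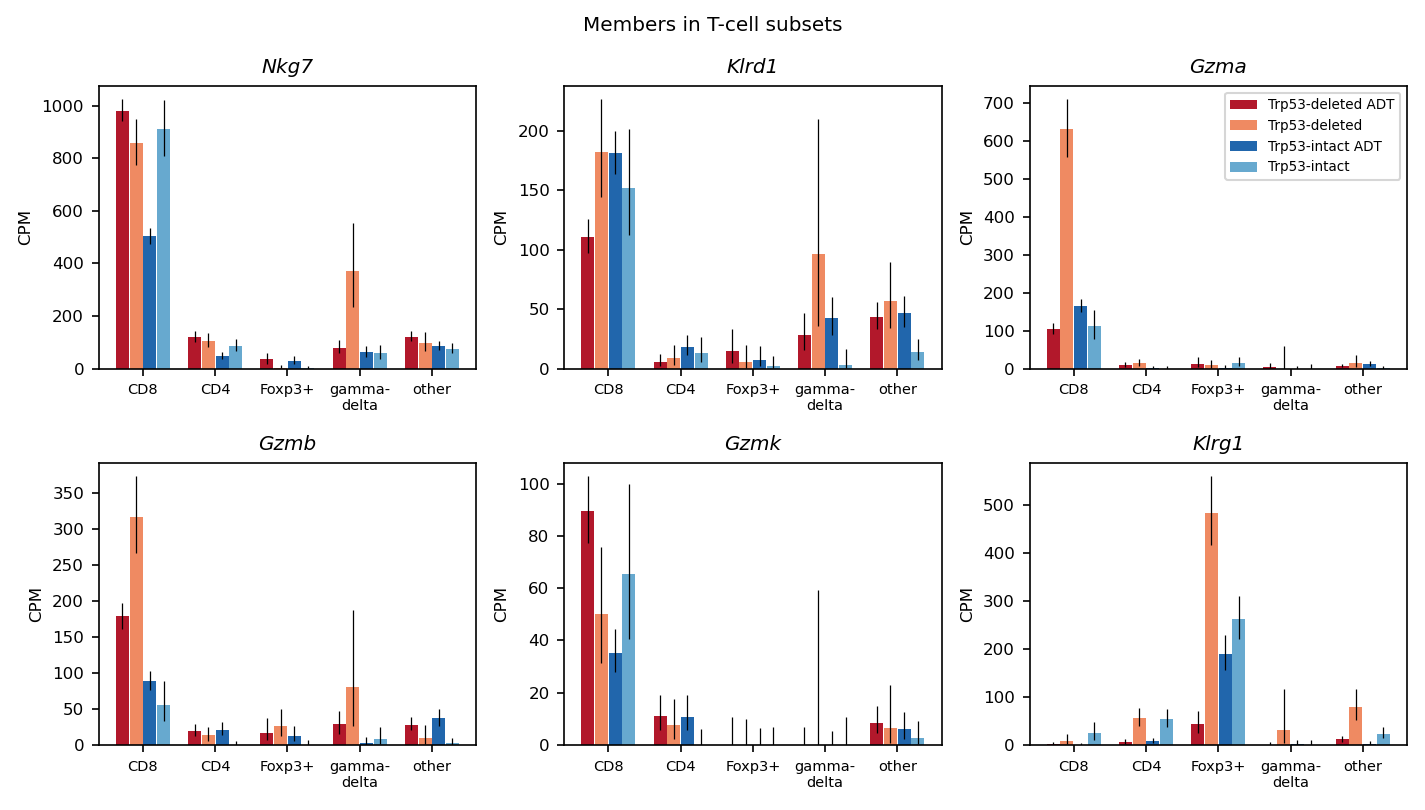
CPM of 6 members in T-cell subsets, with bars for the libraries and lines for 95% exact Poisson intervals. Nkg7, Gzma, Gzmb and Gzmk stand highest in CD8 T cells, and Klrg1 in Foxp3 T cells, where it is at 43.2 CPM in Trp53-deleted ADT and 484.5 CPM in Trp53-deleted.

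Cells that met both gates carried Gzma, Gzmb and Nkg7 above the levels of T cells in every library. Against NK cells, their Gzma was higher in Trp53-intact ADT, close in Trp53-deleted ADT and lower in the libraries without ADT. Gzma was at 1412 CPM in Trp53-deleted ADT, 941 in Trp53-deleted, 1703 in Trp53-intact ADT and 189 in Trp53-intact, from 32, 28, 35 and 35 cells. Gzmb was at 567, 383, 1526 and 724 CPM and Nkg7 at 1440, 1453, 1188 and 1632 CPM in the same libraries. Since Cd3 transcripts occur in some NK cells and NK receptors on some T cells, these cells were assigned to neither.

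The same lists were counted in T cells. In Trp53-deleted ADT against Trp53-deleted (18.3% of all genes higher and 15.1% lower), 5 of 7 protease inhibitors were higher and none lower, with Serpinb9 at 70.6 against 21.6 CPM and Serpinb6b at 49.5 against 14.02 CPM. Adaptors gave 3 higher and 4 lower of 17, granule genes 3 and 4 of 17, transcription factors 1 and 6 of 15, cytokines 3 and 4 of 15 and ligands 1 each way of 10. Tcf7, a transcription factor of naive and memory T cells, was at 105 against 346 CPM. In Trp53-intact ADT against Trp53-intact (10.1% and 7.29%), 6 of 15 cytokines and 3 of 7 inhibitors were lower and none higher, beside 1 and 0 of 16 adaptors, 0 and 1 of 17 granule genes, 2 and 4 of 15 transcription factors and 1 and 0 of 9 ligands. Il17a was at 22.98 against 239 CPM. In Trp53-deleted against Trp53-intact (24.1% and 8.57%), 4 of 7 inhibitors were lower and none higher, and Il17a was at 15.6 against 239 CPM. The rest gave 3 and 1 of 16 adaptors, 2 and 1 of 17 granule genes, 4 and 1 of 15 transcription factors, 3 and 6 of 15 cytokines and 3 and 0 of 9 ligands. In Trp53-deleted ADT against Trp53-intact ADT (15.3% and 5.84%), 5 of 17 granule genes were higher and 1 lower, 4 of 15 cytokines and 3 of 7 inhibitors were higher and none lower, and Ifng was at 58.5 against 14.1 CPM. Adaptors there gave 3 and 0 of 17, transcription factors 1 and 2 of 15 and ligands 2 and 1 of 10.

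Several receptors were also found outside lymphocytes. In the Trp53-deleted ADT library, Klra4 had 3527 UMIs in fibroblast-like cells (53.3 CPM), in 512 of 2249 cells. The fibroblast-like cells of Trp53-deleted, Trp53-intact ADT and Trp53-intact held 4, 3 and 1 UMIs. Klra4 UMIs fell in the deepest of these cells, with a median of 93286 UMIs in cells with Klra4 and 3961 in cells without. Among 630 fibroblast-like cells with at least 20000 UMIs, 298 had at least 3 Klra4 UMIs and 179 had none. This split was made after the values were seen. Ncr1 had no UMI in the 298 cells. Cdkn2a, a cell-cycle inhibitor gene, was at 1668 CPM in cells with Klra4 and 1635 in cells without. Ulbp1, which codes for a ligand of NKG2D, was at 28.4 CPM in cells with Klra4 and 9.79 in cells without, and Cdh2, a cadherin bound by Klrg1, at 68.3 and 34.8 CPM. The class I genes H2-K1 (315 against 959 CPM), H2-D1 (313 against 937 CPM) and H2-T23 (13.1 against 84.7 CPM) were lower in the cells with Klra4. Col1a1 was at 3568 against 8537 CPM, Dcn at 642 against 3393 CPM and Mki67, a gene of cycling cells, at 82.6 against 21.1 CPM. In fibroblast-like cells without Klra4, Cdkn2a was at 9.66 CPM in Trp53-deleted, 39.6 in Trp53-intact ADT and 41.1 in Trp53-intact. The class was set by marker genes only, so it may hold cells that are not fibroblasts. What kind of cell the deep cells of Trp53-deleted ADT were was not tested.

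Klra4 in other classes of that library was set against the fibroblast markers they held. Per 1000 UMIs of the fibroblast markers, fibroblast-like cells had 4.58 Klra4 UMIs (4.43 to 4.74), T cells 4.10 (3.11 to 5.30), B-like cells 4.66, macrophage-like cells 5.85 and NK cells 157 (134 to 182). The T cells of Trp53-deleted ADT thus held Klra4 in the ratio of the fibroblast-like cells, at 10.4 CPM, and the NK cells held far more.

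Macrophage-like cells of the Trp53-intact library carried Klra8, Klra9 and Klra3. Klra8 had 571 UMIs in 308 of 1612 cells (33.3 CPM), Klra9 482 UMIs in 276 (28.1 CPM) and Klra3 275 UMIs in 201 (16.0 CPM). Klra8 had 1 UMI in Trp53-deleted ADT and none in Trp53-deleted and Trp53-intact ADT macrophage-like cells, while Klra3 was at 10.3 CPM in Trp53-deleted. At least 1 of the 3 genes was in 449 of the 1612 cells, at least 2 of them in 250 and all 3 in 86. These genes share stretches at their transcript ends, 23.4% of those of Klra9 with Klra3 and 13.1% of those of Klra8 with Klra9. The number of these genes in a cell is therefore uncertain. The 449 cells, chosen by these genes, had Klra7 at 26.6 CPM, against 0.34 CPM in the other 1163. Ncr1 had 1 UMI, Prf1 none and Nkg7 2 UMIs in the 449 cells, so other NK genes were nearly absent beside the receptors. C1qa, a complement gene of macrophages, was at 6919 against 5919 CPM. Folr2 (475 against 202 CPM), Lyve1 (259 against 123 CPM) and Mrc1 (1473 against 854 CPM), genes of tissue-resident macrophages, were higher in them, and Ccr2, a receptor of recruited monocytes, was at 181 against 379 CPM. The median depth was 11202 against 9865 UMIs.

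**Figure D5:**
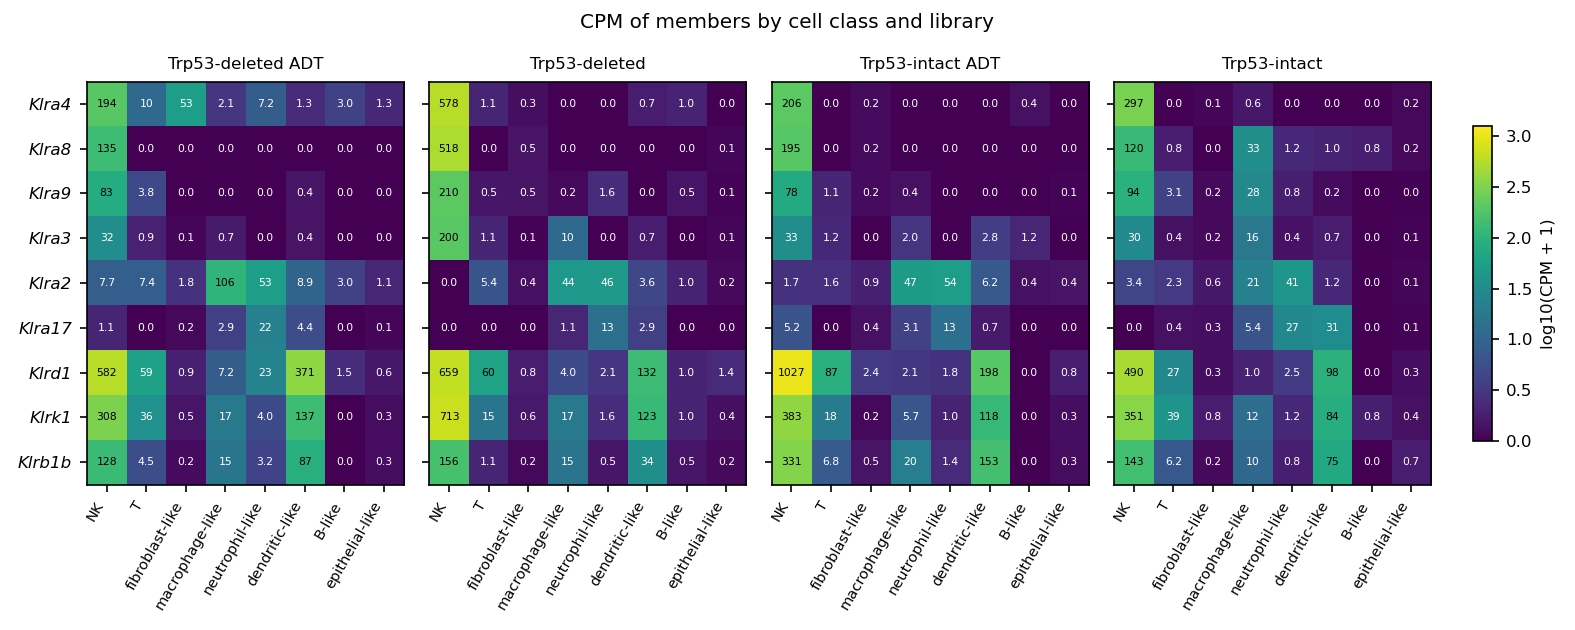
CPM of 9 receptor genes (rows) by class of cells (columns), 1 panel per library, with the colour on a log10(CPM + 1) scale and the CPM printed in each cell. Klra4 stands at 53.3 CPM in fibroblast-like cells of Trp53-deleted ADT, and Klra8 at 33.3 CPM in macrophage-like cells of Trp53-intact.

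Other members had a home in myeloid cells. Klra2 (Ly49B), which myeloid cells are known to carry, was at 106 CPM in Trp53-deleted ADT, 43.9 in Trp53-deleted, 47.2 in Trp53-intact ADT and 21.1 in Trp53-intact macrophage-like cells. Klrd1 was at 371 CPM in Trp53-deleted ADT, 132 in Trp53-deleted, 198 in Trp53-intact ADT and 97.6 in Trp53-intact dendritic-like cells. In the plasmacytoid dendritic gate of Trp53-deleted ADT, Klra17 had 27 UMIs in 16 of 92 cells. Siglech, a defining gene of these cells, was at 1677 CPM in the cells with Klra17 and 146 CPM in those without. Gzmb had 2 UMIs in 14 mast-like cells of Trp53-deleted ADT, none in 3 of Trp53-deleted, 64 in 19 of Trp53-intact ADT and 55 in 38 of Trp53-intact. Klrg1 had 7 UMIs in 20 ILC2-like cells of Trp53-deleted ADT, 30 in 31 of Trp53-deleted, 32 in 51 of Trp53-intact ADT and 29 in 27 of Trp53-intact. These counts of cells are small.

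The ligands of these receptors were read in fibroblast-like cells. The cells of this class differed between libraries, with Cdkn2a at 1614 CPM in Trp53-deleted ADT, 9.61 in Trp53-deleted, 39.55 in Trp53-intact ADT and 41.1 in Trp53-intact, so a difference in kind of cell cannot be told apart from one in level. Ulbp1 was at 21.2 CPM in Trp53-deleted ADT, 1.02 in Trp53-deleted, 0.634 in Trp53-intact ADT and 1.87 in Trp53-intact. Raet1d and Raet1e, also ligands of NKG2D, were at 11.9 and 8.78 CPM in Trp53-deleted ADT and at most 0.787 CPM in any other library. Cdh2 was at 55.5 CPM in Trp53-deleted ADT, 1.42 in Trp53-deleted, 2.38 in Trp53-intact ADT and 7.28 in Trp53-intact. All 4 genes were thus highest in the fibroblast-like cells of Trp53-deleted ADT. H2-T23, whose product Qa-1 is the ligand of CD94 and NKG2A, ran the other way, at 46.4 CPM in Trp53-deleted ADT, 250.5 in Trp53-deleted, 143 in Trp53-intact ADT and 126 in Trp53-intact. Clec2d, a ligand of Klrb1 receptors, was at 28.4 CPM in Trp53-deleted ADT, 185 in Trp53-deleted, 102 in Trp53-intact ADT and 86.2 in Trp53-intact. H2-K1 was at 497 CPM in Trp53-deleted ADT, 982 in Trp53-deleted, 726 in Trp53-intact ADT and 1036 in Trp53-intact. Cdh1, another cadherin gene on the list of ligands, was at 1.30 CPM in Trp53-deleted ADT, 12.8 in Trp53-deleted, 12.9 in Trp53-intact ADT and 22.8 in Trp53-intact. It was thus lowest in the library where Cdh2 was highest.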

How the data were processed

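Per the labels, prostates were dissociated with collagenase and TrypLE and made into 10x Chromium 3' version 3 libraries. The authors deposited raw UMI counts per gene and barcode in 1 matrix, with a table of barcode suffixes that gives the library. Per the submitters' processing notes Cell Ranger 2.1.1 and mm10 were used, whereas the file header gives software version 3.1.0. One targeted gene shared by all groups is not reported here.

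The filters were 500 UMIs and 200 genes as minimum and 20% mitochondrial UMIs as maximum. Scrublet's automatic threshold marked few barcodes (1 to 42 a library), so the barcodes with the highest scores were left out instead, a share of 0.008 for each 1000 barcodes in the library (825, 360, 529 and 617 in Trp53-deleted ADT, Trp53-deleted, Trp53-intact ADT and Trp53-intact). Cells outside both gates took the class with the largest marker sum (at least 3 UMIs and 2 times the next), and are called "-like". UMIs were summed per class and library into CPM. Exact 95% intervals were taken from the Poisson distribution (CPM), from the binomial distribution given the sum of both counts (ratios) and by Clopper-Pearson (shares). With 1 library a group there is no test. Named members were the 12 highest in NK and in T cells, Prf1, Nkg7, Ncr1 and Fasl, up to 4 each way per comparison, and those highest elsewhere with at least 20 UMIs. Up to 2 genes each way were named per list. Others named were chosen after their values were seen. The members and lists were chosen with earlier results of these data known. The counting of members was tested on simulated data. Python 3.11.15, scanpy 1.11.5, scipy 1.17.1 and numpy 2.4.6 were used.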

Additional observations from a re-analysis of the deposited data

Results flagged for a closer look

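Some members differed in opposite directions in comparisons of the same kind. Each group is 1 library and the pairs share libraries, so none of these differences was tested. All values are log2 ratios of CPM with 5 CPM added to each side.

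In NK cells, ADT against no ADT gave Klrc2 -0.86 in the Trp53-deleted pair and 1.55 in the Trp53-intact pair. Klrc1 gave -1.01 and 1.30, Klra8 -1.91 and 0.67, and Prf1 -1.42 and 0.99 in the same pairs. Klrc1 and Klrc2 share stretches at their transcript ends, so their ratios may not be independent of each other. Trp53-deleted against Trp53-intact NK cells also turned with ADT. With ADT the ratios were -0.62 for Fasl, -0.71 for Klrc2, -0.95 for Klrc1, 1.15 for Klra1 and -1.03 for Prf1. Without ADT they were 0.71 for Fasl, 1.69 for Klrc2, 1.36 for Klrc1, -0.97 for Klra1 and 1.37 for Prf1. When cells of both gates were counted, the Klra1 ratio with ADT turned negative, so its directions were no longer opposite.

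In T cells, ADT against no ADT gave Klrk1 1.02 in the Trp53-deleted pair and -0.94 in the Trp53-intact pair, and Gzma -1.68 and 1.65. When cells of both gates were counted as T cells, Klrk1 turned negative in the Trp53-deleted pair as well. The Gzma sums of T cells are those of a few cells, as given above, and intervals of counting error do not cover that. Between genotypes, Klrg1 was at -1.04 with ADT and 0.75 without, and Klrk1 at 0.82 with ADT and -1.14 without.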

How the results depend on the processing

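No paired analysis was possible because each group is 1 library, and for the same reason no replicate could be left out. The share of all genes was counted in the main setting only, so the counts below stand without it. The number of measured members can also change with the setting. Counts are of members at least 1.5-fold higher or lower, and D, I and A stand for Trp53-deleted, Trp53-intact and ADT (DA against D is Trp53-deleted ADT against Trp53-deleted). Adding 1 CPM instead of 5, keeping cells of at least 1000 UMIs, and subtracting the B-like level moved no count by over 1.5 times. Without the filter on low counts there were 3 higher (NK, DA against D), 9 lower (NK, IA against I), 8 lower (NK, D against I), 4 higher (NK, DA against IA) and 2 lower (T, D against I). Weighting cells equally gave 7 lower (NK, DA against D), 6 lower (NK, DA against IA), 2 lower (T, D against I) and 1 lower (T, DA against IA). The limit of 10% mitochondrial UMIs gave 1 lower (T, DA against IA). With doublets kept there were 2 higher (NK, DA against D), 2 lower (T, D against I) and 4 lower (T, DA against IA). Gates at 3 UMIs gave 5 higher and 5 lower (NK, DA against IA). With cells of both gates counted there were 0 higher (NK, DA against IA), 3 higher and 11 lower (T, DA against D), 8 lower (T, IA against I), 2 lower (T, D against I), and 5 higher and 8 lower (T, DA against IA). There the log2 ratios of Klra1 (NK, DA against IA) and of Klra4 and Klrk1 (T, DA against D) turned to -0.17, -0.70 and -0.31. Thinning to 1500 UMIs left out the cells with fewer. At 1500 UMIs per cell there were 4 higher and 8 lower (NK, DA against D), 6 higher (NK, IA against I), 5 higher (NK, D against I), 4 lower (NK, DA against IA), 1 lower (T, DA against D), 4 higher (T, IA against I), 2 higher (T, D against I, where Klrd1 turned to -0.0104) and 1 lower (T, DA against IA).

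The following settings were chosen after seeing the data. Without cells that held markers of another class there were 3 higher and 7 lower (NK, DA against D), 4 higher and 7 lower (NK, DA against IA) and 4 higher (T, D against I). The classes used for this were B, plasma, macrophage, neutrophil, epithelial and fibroblast. In UMIs per cell there were 5 higher and 5 lower (NK, DA against D), 4 higher and 7 lower (NK, D against I), 4 higher (T, D against I) and 4 lower (T, DA against IA). Without the Gzmc-rich NK cells there were 0 higher (DA against D), 2 lower (IA against I), 1 lower (D against I) and 0 higher (DA against IA), and Gzmb (D against I) and Klra7 (DA against IA) turned to 0.94 and -0.14. There were 668 values of named members and shares under all settings. Of them, 583 moved by no more than their counting error, 79 moved further and 6 turned. Why each moved was not tested. Depth limits the NK comparisons, since an NK cell held 5193 to 10499 UMIs on average.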
